A study of Mus musculus with 2 samples.

Results

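The MYC, MAX and MXD network is the set of basic helix-loop-helix leucine zipper factors that pair with MAX or its relative MLX. Its 10 members here were chosen by gene symbol: Myc, Mycn, Mycl, Max, Mxd1, Mxd3, Mxd4, Mxi1, Mnt and Mlx. Each matched 1 of the 34745 gene models in the files. MYC proteins bind DNA as pairs with MAX, prefer the E-box CACGTG, and raise the transcription of genes for growth, ribosome synthesis and division. MXD proteins, MXI1 and MNT compete for MAX and bring SIN3 corepressor complexes to the same kind of site. In marrow, MYC and MYCN together maintain stem cells, and MXD1 is known for rising as granulocytes mature.

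Bulk RNA-seq gave the levels in stem and progenitor cells of mouse marrow that carried a form of PML/RARa, the fusion oncoprotein of acute promyelocytic leukaemia. The 2KR group (1 library) carried the form labelled PML/RARa (2KR), and the WT group (1 library) carried PML/RARa (WT); the series title speaks of 2 lysines of the fusion. Both groups came from femoral marrow of C57BL/6 mice given 5-fluorouracil, underwent selection for progenitors and lentiviral transduction, were sorted as transduced, and were grown with SCF, IL-3, IL-6 and hydrocortisone. An empty-vector arm was not analysed here. The sources used here do not state the age or number of the mice or any pooling, and the level of the introduced fusion was not measured separately.

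The 2KR library held 20462011 counts and the WT library 17606168. Levels between genes are given as RPKM, counts per kilobase of annotated exons (GENCODE M21) relative to the library total. The deposited FPKM was not used for this, because the length behind it was 9933 bases for Myc, longer than the 5034 bases of the whole gene, and was longer than the gene for 6.58% of tested models. Among markers of the labelled cell type, Myb was at 96.0 RPKM in 2KR and 68.2 in WT, Kit at 131 and 151, Cd34 at 99.9 and 52.8, and Gata2 at 83.5 and 126. The mast cell carboxypeptidase gene Cpa3 stood above these, at 1676 RPKM in 2KR and 3579 in WT. With 1 library per group there was no replicate check and no test of significance. Every interval is a 95% interval of counting error only, and every difference describes these libraries.

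The promoter sequences below show which members carry the network's own binding motif close to their start. RefSeq promoter windows on GRCm38.p6 (250 bases before and 50 after a start site) were matched for 9 of the 10 members, all but Myc. CACGTG, which reads the same on both strands, stood in the windows of 4 members, Max, Mxd4, Mnt and Mlx. It was in 7.15% of all 32851 promoter windows and in 11.9% of the 9210 tested gene models with a window. Each line gives 30 bases, 5′ to 3′ on the gene's strand, with CACGTG in capitals. Distances are those of the motif's first base, so in Max the 6 bases of the motif run across the RefSeq start.
Max, chr12:76962234-76962263, minus strand, motif 3 bases before the start: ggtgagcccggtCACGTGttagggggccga
Mxd4, chr5:34187912-34187941, minus strand, motif 219 bases before the start: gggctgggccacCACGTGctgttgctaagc
Mnt, chr11:74830789-74830818, plus strand, motif 123 bases before the start: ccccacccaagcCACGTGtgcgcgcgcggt
Mlx, chr11:101087238-101087267, plus strand, motif 40 bases before the start: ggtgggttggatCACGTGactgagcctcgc

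Mycn, the member with the largest ratio between the libraries, had no CACGTG in its window. Its promoter held 2 copies of TTTGGCGC, a form of the site bound by E2F factors, at 183 and 168 bases before the RefSeq start. This motif was looked for after the sequence was seen; on either strand it was in 0.514% of all windows, and Mycn was the 1 member of the 9 that held it. The 250 bases before the RefSeq start (GRCm38.p6, chr12:12941837-12942086, minus strand) are shown with both copies in capitals. The gene model counted here starts at 12941914, inside this stretch. Both copies lie before that start too, at shorter distances.
Mycn: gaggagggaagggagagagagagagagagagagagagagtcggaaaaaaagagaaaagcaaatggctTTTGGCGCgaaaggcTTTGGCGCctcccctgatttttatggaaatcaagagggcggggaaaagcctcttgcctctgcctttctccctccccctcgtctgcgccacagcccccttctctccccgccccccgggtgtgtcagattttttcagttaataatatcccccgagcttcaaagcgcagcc

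In cells with the 2KR form, Mycn was 2.77-fold higher and Mxd1 1.75-fold lower, while Myc, Max, Mnt, Mlx, Mxd3 and Mxd4 had folds between 0.905 and 1.14. Mxi1 was lower by a smaller factor than Mxd1, and Mycl was barely read. Of the 10 members, 9 averaged at least 1 CPM (counts relative to library size, with TMM factors) and were tested against the size rule, which asks for a log2 ratio of CPM + 1 of at least 1. Of these 9, 1 was at least 2-fold higher in 2KR, Mycn, and 0 were at least 2-fold lower. Over all 12466 tested gene models, the size rule took 2.66% on the higher side and 4.56% on the lower side, 7.22% in all. A count of 1 in 9 is close to that share of 7.22%, so it is not a result about the network as a set. The median log2 ratio was -0.08 over the 9 tested members and 0.02 over all tested models. By counting interval, 3 members lay above a ratio of 1 (Myc, Mycn, Mxd4), 3 below it (Max, Mxd1, Mxi1) and 3 held 1 (Mxd3, Mnt, Mlx).

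**Figure D1:**
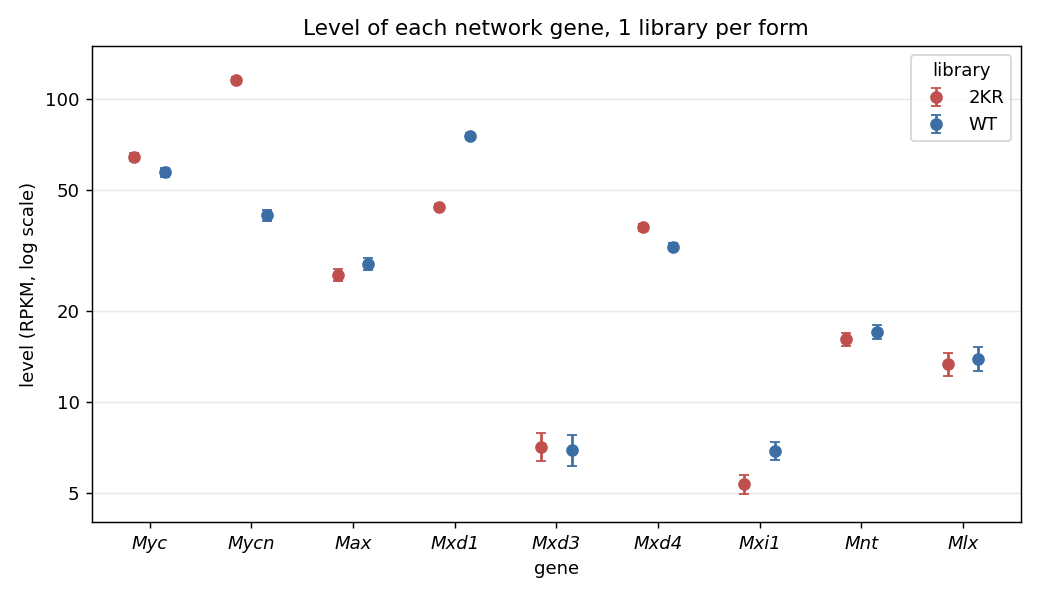
Level of each member in the 2KR and WT libraries, in RPKM on a log axis, with bars for the 95% counting interval. Mycl is left out because it had 0 and 3 counts. Mycn is highest in 2KR at 116 RPKM and Mxd1 is highest in WT at 75.7 RPKM.

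Among the MYC genes, Mycn carried the difference. Mycn (ENSMUSG00000037169, chromosome 12, 12936096 to 12941914 in GRCm38) encodes N-MYC, the form best known from neural and early progenitor cells. It had 7830 counts in 2KR and 2395 in WT, or 380.0 and 137 CPM. The fold of 2.77 (2.65 to 2.91) exceeded that of 98.9% of tested models. In level per length Mycn stood at 116 RPKM in 2KR (114 to 119) and 41.3 in WT (39.6 to 43.0), above 97.5% and 91.3% of tested models.

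Myc itself was close between the libraries. Myc (ENSMUSG00000022346, chromosome 15, 61985341 to 61990374), the founding member and a proto-oncogene induced by growth factors, had 3587 counts in 2KR and 2739 in WT. Its CPM was 174 in 2KR and 157 in WT, a fold of 1.11 (1.06 to 1.17). This ratio lay between the quartiles of all tested models, which were -0.21 and 0.23 on the log2 scale. Mycl (chromosome 4, 122995652 to 123002485), which encodes L-MYC, a family member first described in lung cancer, had 0 counts in 2KR and 3 in WT. No fold is given for it: 3 counts, the limit that a count of 0 allows, is 0.146 CPM in 2KR and 0.172 CPM in WT.

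The make-up of the MYC transcripts differed between the libraries. Myc stood at 64.5 RPKM in 2KR (62.4 to 66.7) and 57.3 in WT (55.1 to 59.4), so that Mycn over Myc was 1.80 in 2KR (1.73 to 1.87) and 0.721 in WT (0.682 to 0.762). Mycn was thus the more abundant of the pair in 2KR and the less abundant in WT. With the length of the longest transcript these ratios were 1.91 in 2KR and 0.765 in WT, but the deposited FPKM, with its long Myc, gave 4.97 and 1.99 and put Mycn above Myc in both. Mycn made up 64.3% of the summed RPKM of the 3 MYC genes in 2KR and 41.9% in WT. That sum was 181 RPKM in 2KR (177 to 184) and 98.6 in WT (95.9 to 101). Of the difference of 82.1 RPKM in the sum, Mycn gave 74.8 and Myc 7.26.

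MAX, the obligate partner of MYC proteins and of most of the repressors, was nearly level. Max (ENSMUSG00000059436, chromosome 12, 76937269 to 76962248) had 1931 counts in 2KR and 1810 in WT, or 93.7 and 104 CPM. It was 1.10-fold lower in 2KR (1.04 to 1.18). Per length, Max stood at 26.2 RPKM in 2KR and 28.6 in WT, and the summed MYC transcripts were 6.89 times the Max level in 2KR and 3.45 times in WT. This ratio depended on the lengths, at 4.49 in 2KR and 2.22 in WT with longest transcripts, and at 2.24 and 0.915 with the deposited FPKM.

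Mxd1 was the repressor gene that differed most. Mxd1 (ENSMUSG00000001156, chromosome 6, 86647042 to 86669161) encodes MAD1, the repressor known for replacing MYC on MAX in maturing myeloid cells. It had 6361 counts in 2KR and 9420 in WT, or 309 and 539 CPM. It was 1.75-fold lower in 2KR (1.69 to 1.80), under the 2-fold rule, and 6.36% of tested models had a lower ratio. A small model inside Mxd1 on the same strand, RP23-20K24.9, had 104 counts in 2KR and 138 in WT, few beside those of Mxd1.

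The other repressor genes showed smaller differences that ran both ways. Mxi1 (ENSMUSG00000025025, chromosome 19), also called Mxd2, had 745 counts in 2KR and 827 in WT, and was 1.31-fold lower (1.18 to 1.45). Mxd4 (ENSMUSG00000037235, chromosome 5) had 6547 counts in 2KR and 4860 in WT, a fold of 1.14 (1.10 to 1.19). Its protein, MAD4, pairs with MAX and also with MLX. So among the repressors Mxd4 lay on the opposite side of 1 from Mxd1 and Mxi1, by a small margin.

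Mnt, Mxd3 and Mlx did not differ beyond counting error. Mnt (ENSMUSG00000000282, chromosome 11), the broadly expressed MAX-bound repressor that acts as a counterweight to MYC, had 1525 counts in 2KR and 1387 in WT, a fold of 0.933 (0.867 to 1.004). Mxd3 (ENSMUSG00000021485, chromosome 13), known for its expression in dividing cells, had 345 counts in 2KR and 288 in WT, a fold of 1.02 (0.867 to 1.19). Mlx (ENSMUSG00000017801, chromosome 11), the MAX-like partner of the glucose-responsive factors MondoA and ChREBP, had 544 counts in 2KR and 488 in WT, a fold of 0.946 (0.836 to 1.07). Both Mxd3 and Mlx overlap a gene on the other strand, Prelid1 by 104 bases and Psmc3ip by 385. The strandedness of the counts is not stated, so an unknown part of their reads could belong to the neighbour. Prelid1 had 8725 counts in 2KR and 7822 in WT, far above those of Mxd3, and Psmc3ip had 255 and 205.

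**Figure D2:**
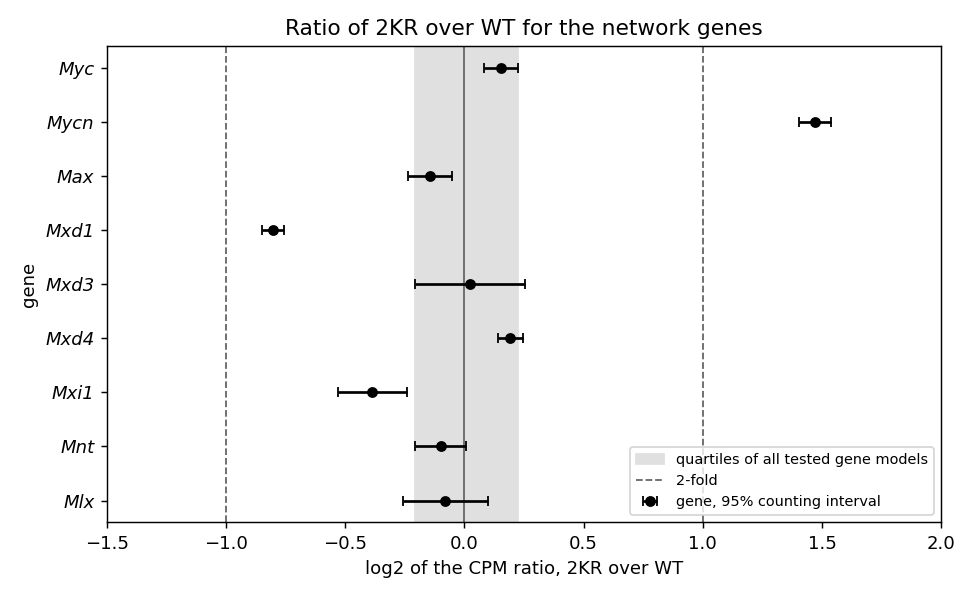
Log2 of the CPM ratio of 2KR over WT for 9 members, with the 95% counting interval. The grey band spans the quartiles of log2 ratios of CPM + 1 over all tested gene models (-0.21 to 0.23) and dashed lines mark 2-fold. Mycn lies beyond 2-fold, Mxd1 and Mxi1 lie left of the band, and the other 6 points lie inside it.

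The order of the members by level per length differed between the libraries at its upper end. In 2KR it ran Mycn, Myc, Mxd1, Mxd4, Max, Mnt, Mlx, Mxd3, Mxi1 and Mycl. In WT it ran Mxd1, Myc, Mycn, Mxd4, Max, Mnt, Mlx, Mxd3, Mxi1 and Mycl. Mycn and Mxd1 thus changed places around Myc, and the order of the other 8 was the same. Neighbours in the order had separate counting intervals, except Mxd3 and Mxi1 in WT, at 6.91 and 6.88 RPKM; for Mycl in 2KR no interval was set. Counting error does not cover the choice of length, which moved Myc, Max, Mxd4 and other members within the order. Mycn was first in 2KR and Mxd1 first in WT under annotated exons, longest transcripts and the deposited FPKM.

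Set against each other, Mycn over Mxd1 per length was 2.64 in 2KR (2.56 to 2.73) and 0.546 in WT (0.522 to 0.571). With longest transcripts it was 2.15 in 2KR and 0.444 in WT. The 5 MAX-binding repressor genes summed to 110.2 RPKM in 2KR (108 to 112) and 139 in WT (137 to 141). Mxd1 made up 39.9% of that sum in 2KR and 54.4% in WT, and Mxd4 34.2% and 23.4%. The sum of the MYC genes over the sum of the repressors was 1.64 in 2KR (1.58 to 1.70) and 0.709 in WT (0.679 to 0.741), with bounds taken from the far ends of both sums' intervals. It was 1.29 in 2KR and 0.559 in WT with longest transcripts, and 1.10 and 0.384 with the deposited FPKM. On CPM, which leaves length out, it was 0.735 in 2KR and 0.306 in WT, so its place relative to 1 in 2KR rests on the use of lengths. These ratios are formed within each library and do not depend on scaling between libraries. They compare transcripts, and MYC proteins are known to be short-lived, so they are not ratios of protein.

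**Figure D3:**
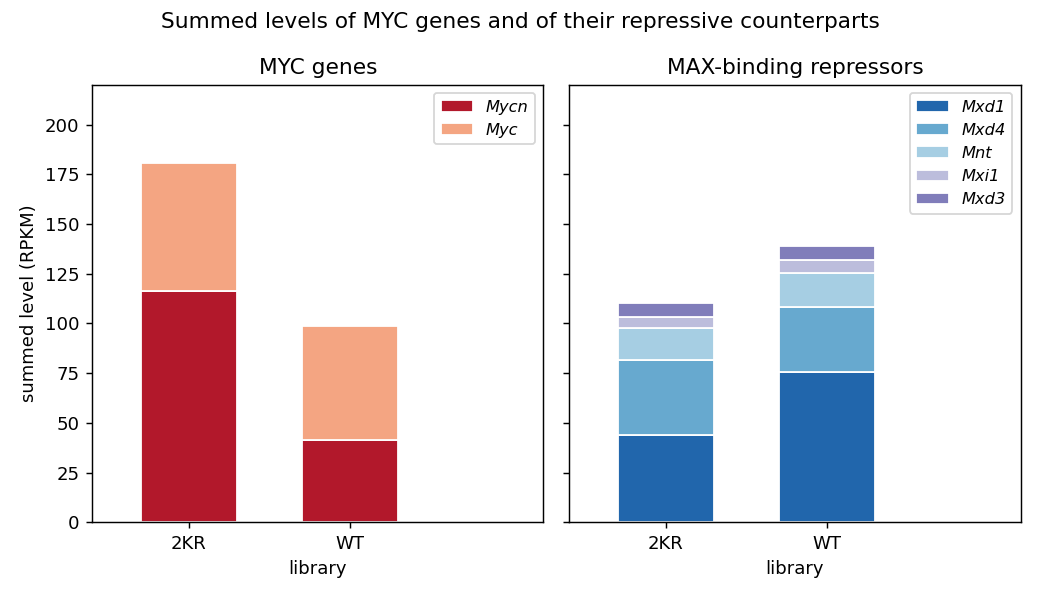
Summed RPKM of the MYC genes (left) and of the 5 MAX-binding repressor genes (right), stacked by gene, in 2KR and WT. Mycl is too low to be drawn. The MYC bar is 181 RPKM in 2KR and 98.6 in WT, and the repressor bar is 110.2 in 2KR and 139 in WT.

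Levels of other cell types' genes moved with these differences, and their part in them was not tested. In bulk RNA, fewer cells of a type and less RNA per cell cannot be told apart. Among 10 tested mast cell and basophil markers, 9 lay below a ratio of 1, against 47.7% of all tested models. Of these, 7 were at least 2-fold lower, against 4.56% of all tested models. Mcpt8 was past 2-fold on the higher side in 2KR. The 14 genes of that list summed to 2942 RPKM in 2KR and 5019 in WT, of which Cpa3 was 1676 in 2KR and 3579 in WT. Fcer1a and Tpsab1 had 0 counts in both libraries, and Mcpt4, Prss34 and Tpsb2 had 0 in 2KR. Of 7 tested granulocyte progenitor markers, 5 had a ratio above 1 and 2 below. At least 2-fold higher were 3, against 2.66% of all tested models. The list summed to 1799 RPKM in 2KR and 1189 in WT, with none at 0. Its largest part was Calr, at 664 RPKM in 2KR and 424 in WT, while Mpo was at 10.6 in 2KR and 4.69 in WT. Elane, with 10 counts in 2KR and 5 in WT, and Prtn3, with 14 and 6, averaged below 1 CPM and were not tested. Late granulocyte markers were low, at a sum of 15.1 RPKM in 2KR and 21.4 in WT, with Camp at 0 counts in both libraries.

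Megakaryocyte markers ran both ways. Of 6 tested genes, 4 had a ratio above 1, against 52.3% of all tested models. Of these 4, Pf4 and Ppbp were at least 2-fold higher, against 2.66% of all tested models. Itga2b, the integrin chain of platelets, had a fold of 0.990, and Vwf, the gene of von Willebrand factor, with 27 counts in 2KR and 42 in WT, a fold of 0.545. The list summed to 778 RPKM in 2KR and 351 in WT, of which Pf4 was 567 in 2KR and 167 in WT. Pf4, a platelet chemokine gene, was among the 3 genes nearest to Mycn in both libraries. Likeness was the Euclidean distance of log2(CPM + 1) over the 2 libraries, which is a weak measure. For Mycn these genes were Slc38a1 (408 CPM in 2KR and 137 in WT, distance 0.103), Pf4 (406 and 121, distance 0.200) and Edem1 (323 and 123, distance 0.280). For Myc they were Tra2b, Psmd1 and Tcf3, at distances of 0.0239 to 0.0250.

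Of 3 other genes of the wider network, Mga and Mlxip were lower in 2KR and Mlxipl was barely read. Mga, a large MAX partner that joins a Polycomb complex, had 3437 counts in 2KR and 3450 in WT and was 1.18-fold lower (1.13 to 1.24). Mlxip, which encodes MondoA, the nutrient-sensing partner of MLX, had 1707 counts in 2KR and 2063 in WT and was 1.42-fold lower (1.34 to 1.52). Mlxipl, which encodes ChREBP, had 8 and 4 counts, a fold of 1.70 with an interval of 0.455 to 7.70. Both listed targets of MondoA with MLX were lower too. Txnip, an inhibitor of glucose uptake and thioredoxin, stood at 678 CPM in 2KR and 887 in WT, 1.31-fold lower (1.28 to 1.34), and Arrdc4, its relative, at 4.37 and 7.49 CPM, 1.72-fold lower (1.30 to 2.27).

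Tested E-box factors outside the network that share its helix-loop-helix zipper fold numbered 8. Below a ratio of 1 lay 6, against 47.7% of all tested models, and 1 was at least 2-fold lower, against 4.56%. A count of 1 in 8 is not a result about these factors as a set. The gene past 2-fold was Mitf, the mast cell and melanocyte regulator, which is also counted among the mast cell and basophil markers. It had 52 counts in 2KR and 255 in WT, 5.78-fold lower (4.27 to 7.95). Srebf1 and Srebf2, which control fatty acid and sterol synthesis, were 1.38-fold (1.29 to 1.47) and 1.08-fold lower (1.05 to 1.11). The list median of -0.19 compares with 0.02 over all tested models.

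Cofactors of the network had small ratios. Among 13 coactivator, 12 corepressor and 15 protein turnover genes, 0 were past 2-fold in either direction, against 7.22% of all tested models. In lists this short, a count of 0 beside that share is not a result about the cofactors as a set. Over the coactivators the median log2 ratio was 0.11, with 9 ratios above 1. Ruvbl1 and Ruvbl2, the paired ATPases of chromatin remodelling complexes that bind MYC, were 1.35-fold (1.23 to 1.49) and 1.34-fold higher in 2KR (1.25 to 1.44). Trrap, the scaffold of MYC-bound acetyltransferase complexes, was 1.13-fold lower (1.09 to 1.17).

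The corepressor genes had a median of 0.22, with 9 ratios above 1 and 3 below. Hdac2, a histone deacetylase of the SIN3 complex, was 1.47-fold higher in 2KR (1.38 to 1.56), and Sap30, another subunit, was 1.44-fold lower (1.34 to 1.55). Genes acting on the stability of MYC proteins had a median of 0.04, with 10 ratios above 1 and 5 below. In that list Skp2, a ubiquitin ligase subunit that acts on MYC, was 1.33-fold higher (1.19 to 1.48) and Aurka, the kinase known to shield N-MYC from degradation, was 1.23-fold higher (1.15 to 1.31).

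Genes classically induced by MYC had small ratios, most of them above 1, against 52.3% above 1 over all tested models. Their lists were chosen with earlier results of these data known, so they are not independent of them. Of 20 genes of the nucleolus and ribosome biogenesis, 20 had a ratio above 1, 15 with the whole interval above 1, and the median log2 ratio was 0.39. Npm1, a nucleolar chaperone, stood at 864 CPM in 2KR and 590 in WT, a fold of 1.46 (1.43 to 1.501). Nop56, a core protein of the particles that methylate ribosomal RNA, had a fold of 1.52 (1.43 to 1.62), and Ncl, nucleolin, 1.22 (1.19 to 1.24). No gene of this list reached 2-fold in either direction, against 7.22% of all tested models, a share that gives few genes in a list of 20.

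Of 20 genes of nucleotide, polyamine and folate metabolism, 18 had a ratio above 1, and the median was 0.35. Shmt2, the mitochondrial serine hydroxymethyltransferase, had the largest ratio of the list, at 236 CPM in 2KR and 140 in WT, a fold of 1.68 (1.602 to 1.77). The purine synthesis genes Paics and Ppat both had a fold of 1.41 (1.33 to 1.48 and 1.30 to 1.52). Cad and Tyms, named after their values were seen, were the 2 below 1, with folds of 0.951 (0.907 to 0.997) and 0.862 (0.805 to 0.923). Over 17 genes of translation and chaperones the median was 0.28, with 13 ratios above 1; the chaperonin genes Cct3 and Cct5 had folds of 1.36 (1.29 to 1.42) and 1.34 (1.29 to 1.39), while Eif4g1, an initiation factor scaffold, had 0.970 (0.943 to 0.996).

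Of 14 cell cycle targets 12 lay above a ratio of 1, and their median was 0.36. Ccnd2, the D-type cyclin of growth factor response, stood at 477 CPM in 2KR and 310 in WT, a fold of 1.54 (1.49 to 1.59), and its kinase Cdk4 at 381 and 258, a fold of 1.48 (1.42 to 1.53). Ccnd1 was past 2-fold but rested on 44 counts in 2KR and 6 in WT, a fold of 6.22 (2.64 to 17.9). The other side held Id2, an inhibitor of helix-loop-helix factors, 1.64-fold lower (1.58 to 1.71), and Tert, the telomerase subunit, with 35 counts in 2KR and 71 in WT, 2.39-fold lower (1.57 to 3.69) but within the size rule because of its pseudocount.

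Markers of proliferation ran with these lists: 14 of 14 had a ratio above 1, their median was 0.29, and they summed to 861 RPKM in 2KR and 716 in WT. Top2a, the topoisomerase of dividing cells, had a fold of 1.29 (1.26 to 1.32) and Mki67 1.08 (1.06 to 1.10). The part of cell division in the ratios of Mycn and of the target lists was not tested.

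Genes with a record of repression by MYC did not share a direction. Of 14 tested, 8 had a ratio below 1, against 47.7% of all tested models, and 6 above, and the median was -0.27. At least 2-fold lower was 1, against 4.56% of all tested models, and 1 was at least 2-fold higher, against 2.66%. Counts this small are not a result about the list as a set. Cebpd, a myeloid factor of the inflammatory response, was 5.91-fold lower in 2KR (4.87 to 7.23), and Ndrg1, a stress-response gene, stood at 477 CPM in 2KR and 830.2 in WT, 1.74-fold lower (1.70 to 1.79). Among inhibitors of cyclin-dependent kinases, Cdkn2c was 1.94-fold lower (1.64 to 2.30), whereas Cdkn1a had a fold of 1.56 (1.51 to 1.61) and Cdkn1c, with 311 counts in 2KR and 54 in WT, 4.89 (3.65 to 6.65).

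**Figure D4:**
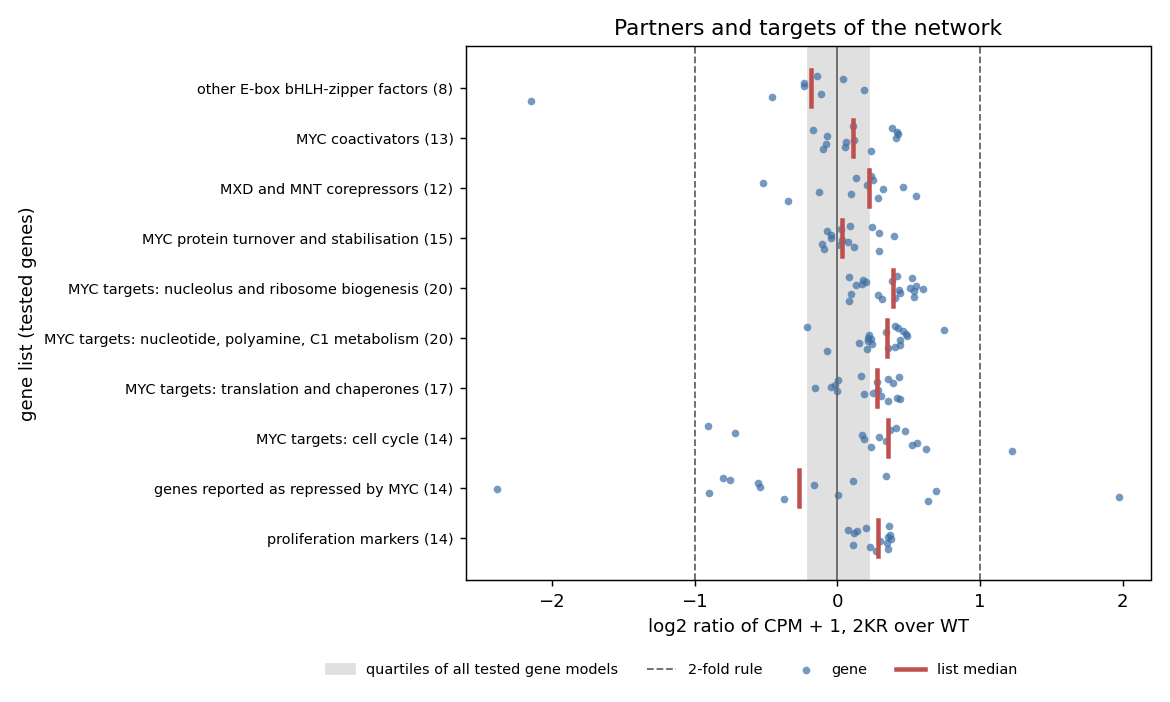
Log2 ratio of CPM + 1, 2KR over WT, for each tested gene of the lists with at least 5 tested genes, with list medians in red and the quartiles of all tested models in grey. Medians of the 4 lists of induced targets run from 0.28 to 0.39, and that of the genes reported as repressed is -0.27.

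Models were also split by presence of the E-box. The 1099 tested models with CACGTG in a promoter window had a median log2 ratio of -0.01, and 49.0% of them had a ratio above 1. The 8111 without it had a median of 0.02, and 52.7% had a ratio above 1. At least 2-fold different were 5.55% of those with the motif and 7.08% of those without. Among induced targets with a matched window, CACGTG was found for 2 of 15 ribosome biogenesis genes, 5 of 17 metabolic genes, 6 of 16 translation and chaperone genes and 2 of 11 cell cycle genes. The 4 network members that carried it, shown above, had folds between 0.905 and 1.14.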

How the data were processed

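The submitters' processing notes name HISAT2 2.0.4 and GRCm38. The counting program, annotation release and strandedness were not given in the sources used here. Each deposited file lists, per the file headers, a raw count and an FPKM value (per gene length and library total) for 34745 gene models. For all 15403 models read in both libraries, the deposited FPKM matched a count divided by 1 fixed length and the library total, to within 0.1%. Because some of these lengths exceeded the gene, levels between genes, in place of the planned FPKM sums, used RPKM from the counts and merged exons of GENCODE M21, a choice made after seeing the data. Samples were grouped by the infection in the labels.

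Counts were scaled with TMM (edgeR 4.0.16, R 4.3.3; factors 1.007 for 2KR and 0.9931 for WT) to CPM. Intervals were computed with scipy 1.17.1 and numpy 2.4.6, tables with pandas 2.3.3 and figures with matplotlib 3.10.9, in Python 3.11.15. Folds are CPM ratios, and their 95% intervals (exact, Clopper-Pearson) cover counting error only, as do Poisson intervals of RPKM and gamma intervals of sums. The size rule uses log2(CPM + 1), which understates differences of low genes. No model could be fitted with 1 library per group. Strand and exons came from GENCODE M21.

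The 10 members and all gene lists (13 network and target lists, 8 marker lists) were chosen with earlier results of these data known. Each list named up to 4 genes by size of log2 ratio and 2 by level, and lists of 4 or fewer whole. Mcpt8, Elane, Prtn3, Cad and Tyms were named outside this rule after their values were seen. For markers up to 4 genes by level were named. Mycnos and Azu1 were not analysed here. Alternatives were other pseudocounts, filters and scalings, DESeq2 1.42.0 size factors, FPKM and, added after seeing the data, longest transcripts.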

Additional observations from a re-analysis of the deposited data

How the results depend on the processing

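With 1 library per form, variation between cultures was not measured, no replicate could be left out, and depth limits only the precision of each count. No paired analysis was possible because each form had 1 library. Every tested member kept its direction under pseudocounts of 0.1 and 5 CPM, no filter, a mean of at least 5 CPM, library totals, DESeq2 size factors, centring and FPKM. The log2 ratio ran from 1.44 to 1.49 for Mycn, -0.82 to -0.77 for Mxd1 and 0.13 to 0.17 for Myc, and the count of members past 2-fold was 1 higher and 0 lower throughout. These settings moved the median of all tested models by less than 0.1. Without a filter the median of the other network genes was -0.24, against -0.37, since Mlxipl then enters. The summed level of the MYC genes, 2KR over WT, was 1.83 on annotated exons, 1.89 as CPM without length and 1.86 with longest transcripts, but 2.25 in the deposited FPKM and 2.22 with TMM factors added, which give Myc less weight. The sum of the 5 repressors had 0.793, against 0.773 in FPKM with TMM factors; without Mnt it had 0.772, against 0.753 and, with longest transcripts, 0.791. The median of the genes reported as repressed by MYC was -0.27, but -0.14 on FPKM, -0.16 with a pseudocount of 5 CPM and -0.17 at a mean of at least 5 CPM. The number of all models past 2-fold was 900, but 1160 with a pseudocount of 0.1 CPM, 444 with 5 CPM, 448 on FPKM, 584 at a mean of at least 5 CPM and 950 without a filter.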

Other observations

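The genes beside the MYC genes on their chromosomes were read as well. Pvt1, the long noncoding RNA gene next to Myc, had 336 counts in 2KR and 295 in WT, a fold of 0.966 (0.824 to 1.13). Fam49b, farther along that region, had a fold of 0.963 (0.897 to 1.03). Ddx1, an RNA helicase gene next to Mycn that is often co-amplified with it in human neuroblastoma, stood at 121 CPM in 2KR and 100.5 in WT, a fold of 1.20 (1.13 to 1.28).

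Markers of other lineages were mostly low. Of 10 tested monocyte and macrophage genes, 5 had a ratio above 1 and 5 below. At least 2-fold higher was 1, against 2.66% of all tested models, and 4 were at least 2-fold lower, against 4.56%. The list summed to 39.4 RPKM in 2KR and 78.6 in WT. Of 7 tested erythroid genes 6 had a ratio above 1, against 52.3% of all tested models, 3 of them with the whole interval above 1. The list summed to 92.1 RPKM in 2KR and 57.8 in WT, of which Tfrc was 51.4 in 2KR and 33.2 in WT. Among globin genes, Hba-a1 had 415 counts in 2KR and 187 in WT, and Hbb-bt had 26 and 55. Hba-a2 and Hbb-bs had 0 counts in both libraries. Of 14 lymphoid genes 3 were tested. Dntt, the template-free DNA polymerase of lymphoid progenitors, stood at 154 CPM in 2KR and 31.1 in WT, a fold of 4.95 (4.52 to 5.43). Il7r, the interleukin 7 receptor chain, had 12 counts in 2KR and 548 in WT, 53.8-fold lower (30.6 to 104.8). Of 13 tested progenitor markers 5 had a ratio above 1 and 8 below, against 47.7% of all tested models below 1. Lmo2 was at least 2-fold higher and Meis1 at least 2-fold lower, against 2.66% and 4.56% of all tested models.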
